A study of Mus musculus with 135 samples.

Results

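S100a10, Anxa2, Vim, Dmkn, Mdk, Crabp2, Cd24a, Sva, Urah and Bex2 are 10 genes whose RNA was higher in mouse embryos with knocked-out Obox genes than in wild-type embryos. They are 10 of the 24116 genes in the deposited tables. Each was taken by name because its level was higher in mzKO embryos (Obox genes knocked out in both the egg and the embryo) than in wild type, at the late 2-cell stage or at the 4-cell time of 1 of the 7 tables. The genes were thus chosen by their mzKO and wild-type levels at those stages, which are given below as a description without a test. The same genes were then followed, with tests, through oocytes, early 2-cell embryos and blastocysts, through embryos with other losses of Obox, and through embryos and embryonic stem cells (ESCs) with added Obox, none of which the choice used.

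The Obox genes encode homeodomain transcription factors that are made in the mouse oocyte and in the first days of the embryo. Mouse embryos begin to transcribe their own genome around the 2-cell stage, with the main wave in late 2-cell embryos, and the proteins and RNA stored in the egg by the mother are in place before that. A maternal knockout therefore removes the stored product, and a maternal-zygotic knockout removes the stored and the newly made product. The 10 genes have no single function: S100a10 and Anxa2 encode the subunits of a membrane-binding complex, Vim encodes an intermediate filament protein, Mdk, Dmkn and Sva encode secreted proteins, Crabp2 binds retinoic acid, Cd24a encodes a surface glycoprotein, Urah encodes an enzyme of urate breakdown, and Bex2 encodes a small adaptor protein.

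RNA was sequenced by Smart-seq2, a full-length method for small numbers of cells, in 107 of the 135 samples of the series. In the first table, OboxKO full-grown oocytes (FGO) and OboxKO MII oocytes (ovulated eggs) stood beside wild-type oocytes of both kinds, with 2 libraries in each group, and mzKO embryos stood beside wild-type embryos at the early 2-cell (2 libraries each), late 2-cell (3 each) and 4-cell time (3 each). The mzKO embryos of the last group were collected when controls had reached the 4-cell stage. At the blastocyst time 2 libraries of mzKO embryos arrested at the 2-cell stage stood beside 2 of wild-type blastocysts, and mzKO embryos with added Obox1, Obox5 and Obox7 together, with Obox3 or with Obox4 gave 1 library each. The other tables held mKO embryos and their wild-type controls (2 libraries each at late 2-cell, 1 each at blastocyst), Obox-- and Obox+- embryos (3 each at early 2-cell, 4 and 3 at late 2-cell), and wild-type embryos and parthenotes (eggs activated without sperm) with siRNA (25 uM of each, into full-grown oocytes for the maternal and into zygotes for the zygotic knockdown) or siCtrl. They also held wild-type embryos with Obox1, Obox2, Obox3 or Obox5 or with H2O (1 library each), ESCs grown in 2i and LIF with Obox3 (4 libraries), Obox5 (4) or GFP (5), and Nr5a2 KO and Nr5a2 wild-type ESCs with Obox3, Obox5 or GFP (2 each). The Obox-- and Obox+- libraries are headed single embryo. The labels do not say how many embryos entered the other embryo libraries or which parents gave the Obox-- and Obox+- embryos. They also do not say how many cell clones were used, or whether replicates came from separate animals or cultures. The p-values therefore rest on the spread between libraries, shared over all replicated groups of a table, and that spread may be technical.

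The values are the authors' deposited FPKM, read fragments scaled by transcript length and by the mapped fragments of the library. Read counts were not used here, so the depth behind a value is unknown. The FPKM of a library summed to 37752 to 535770, and 2167 to 10583 genes reached 1 FPKM. The extremes at the low end were the libraries of arrested mzKO embryos, whose sums were 74531 and 37752 FPKM and in which the ribosomal RNA gene Rn45s took 55.4% and 71.5%. Most Obox genes followed the labels in most groups: in mzKO late 2-cell embryos each library was at 0 for Obox1, Obox2 and Obox7 and reached 0.05 FPKM at most for Obox5, against 74.0 to 156 FPKM of Obox5 in wild type. Obox6 and Obox8 were lower there but present, at 59.3 to 87.4 and 5.71 to 11.7 FPKM. Wild type had 219 to 471 FPKM of Obox6 and 67.7 to 140 FPKM of Obox8. At the 4-cell time mzKO embryos had 15.6 to 140 FPKM of Obox6 and 0.272 to 71.8 FPKM of Obox8. In mKO late 2-cell embryos Obox5 was at 0.28 to 0.61 FPKM but Obox3 was at 11.02 to 14.4 FPKM, and in Obox-- embryos Obox3 and Obox4 were listed at 0 while Obox1 and Obox5 were detected. One of the arrested mzKO libraries, replicate 1, had 59.7 FPKM of Obox3, against its label, and replicate 2 had none.

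Promoters show what the 10 genes share in sequence, apart from their levels. RefSeq promoter windows of 300 bases, 250 before to 50 after the start (build GRCm38.p6), were matched for 6 of the 10 genes and made 9 windows. These are not all separate sequences, since the Dmkn windows from bases 30763506 and 30763508 nearly coincide and those of Urah overlap. The sequences of Anxa2, Vim and Sva are printed as examples of windows with several motifs, with a single core element and with no match. Capitals mark TATAAA, a core promoter element, and GGGCGG, which SP factors bind, both read on either strand, and all 3 windows lie on the plus strand, at chr9:69453433-69453732 for Anxa2, chr2:13574061-13574360 for Vim and chr6:42038144-42038443 for Sva.
Anxa2: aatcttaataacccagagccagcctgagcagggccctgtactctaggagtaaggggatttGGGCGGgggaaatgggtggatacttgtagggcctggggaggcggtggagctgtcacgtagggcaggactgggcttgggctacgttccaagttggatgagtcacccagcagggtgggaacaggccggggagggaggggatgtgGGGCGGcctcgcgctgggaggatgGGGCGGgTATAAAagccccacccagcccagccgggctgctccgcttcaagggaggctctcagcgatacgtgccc
Vim: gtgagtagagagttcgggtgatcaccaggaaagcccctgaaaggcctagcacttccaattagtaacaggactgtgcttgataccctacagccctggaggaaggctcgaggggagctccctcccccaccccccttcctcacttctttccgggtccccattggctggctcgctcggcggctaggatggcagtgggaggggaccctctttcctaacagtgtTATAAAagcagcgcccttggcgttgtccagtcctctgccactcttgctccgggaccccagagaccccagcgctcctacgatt
Sva: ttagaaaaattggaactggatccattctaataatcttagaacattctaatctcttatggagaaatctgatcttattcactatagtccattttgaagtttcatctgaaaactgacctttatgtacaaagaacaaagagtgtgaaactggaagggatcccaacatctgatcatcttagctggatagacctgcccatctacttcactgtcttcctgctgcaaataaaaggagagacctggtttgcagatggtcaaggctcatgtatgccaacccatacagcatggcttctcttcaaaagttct
GGATTA, the core that homeodomains of the CRX group bind, was searched on both strands and was in 0 of the 9 windows, against 7.06% of all 32851 RefSeq promoter windows. TATAAA was in 3 windows, of Vim, Anxa2 and Bex2, against 13.6% of all windows, and its first base stood at -32 in Vim and -17 in Anxa2. In Bex2 the match was on the other strand at -213, far from the start. GGGCGG was in 4 windows of 3 genes, Urah, Anxa2 and Bex2, against 35.7% of all windows. The motifs do not overlap one another in Anxa2, where 1 base parts the core element from the last GC-rich one. These matches describe the letters in the windows and no binding was measured at them here.

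S100a10 and Anxa2, whose proteins form a complex that links membranes to actin, both stood far above wild type. S100a10 had 40.9, 22.8 and 26.4 FPKM in mzKO late 2-cell embryos, against 2.003, 0.639 and 0 FPKM in wild type. In mzKO embryos of the 4-cell time it had 37.1, 29.2 and 31.3 FPKM and 2.55, 0.936 and 0 FPKM in wild type. Its 3 mzKO libraries lay close together at both times and never met wild type. Anxa2 had 35.9, 20.7 and 36.4 FPKM in mzKO late 2-cell embryos and 0.318, 3.29 and 2.16 FPKM in wild type, and at the 4-cell time 7.92, 17.9 and 40.4 FPKM in mzKO embryos and 0.917, 5.53 and 0.348 FPKM in wild type. Its groups did not overlap either, although the lowest mzKO library at the 4-cell time was near the highest wild-type library. The log2 fold changes of FPKM + 1 at late 2-cell were 4.15 (95% confidence interval 2.98 to 5.32) for S100a10 and 3.57 (2.40 to 4.74) for Anxa2, given as description only.

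Vim encodes vimentin, the filament protein of mesenchymal cells. It had 14.8, 13.5 and 13.4 FPKM in mzKO late 2-cell embryos, against 0.500, 0.251 and 0.318 FPKM in wild type. Vim then had 11.3, 4.701 and 7.05 FPKM in mzKO embryos of the 4-cell time and 0.147, 0 and 0.157 FPKM in wild type. The late 2-cell libraries of mzKO embryos had the smallest SD of the 10 genes, 0.812 FPKM, and no wild-type library reached 1 FPKM.

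Among the secreted proteins, Mdk encodes midkine, a heparin-binding growth factor. Mdk had 20.7, 8.32 and 14.99 FPKM in mzKO late 2-cell embryos and 0.863, 0 and 0.425 FPKM in wild type, and at the 4-cell time 17.1, 28.3 and 30.01 FPKM in mzKO embryos and 0.193, 0.267 and 0 FPKM in wild type. Dmkn encodes dermokine, which keratinocytes of the skin secrete. Dmkn had 12.95, 10.6 and 21.4 FPKM in mzKO late 2-cell embryos and 0.0449, 0 and 0.734 FPKM in wild type. Its mzKO libraries at the 4-cell time were nearly equal, at 36.96, 36.04 and 37.6 FPKM, and all 3 wild-type libraries were listed at 0. Sva encodes a secreted antigen of the seminal vesicle. Sva had 32.1, 35.7 and 39.02 FPKM in mzKO late 2-cell embryos and 2.88, 8.65 and 26.5 FPKM in wild type, so that its highest wild-type library came near the mzKO ones. Sva ranged widely at the 4-cell time, with 95.6, 204 and 23.3 FPKM in mzKO embryos, against 0, 0 and 0.262 FPKM in wild type.

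Crabp2, which carries retinoic acid to its nuclear receptors, had 123, 32.1 and 56.4 FPKM in mzKO late 2-cell embryos and 3.23, 6.203 and 8.25 FPKM in wild type. Crabp2 at the 4-cell time had 39.9, 27.7 and 25.3 FPKM in mzKO embryos and 0.7402, 0.484 and 0.1799 FPKM in wild type. Cd24a, the surface glycoprotein gene, had 36.2, 68.2 and 72.3 FPKM in mzKO late 2-cell embryos and 11.6, 7.02 and 13.02 FPKM in wild type. Cd24a was above 5 FPKM in every wild-type late 2-cell library. Cd24a at the 4-cell time had 98.9, 15.5 and 96.2 FPKM in mzKO embryos and 1.61, 1.47 and 2.95 FPKM in wild type.

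Urah, which encodes 5-hydroxyisourate hydrolase, had 70.3, 14.2 and 28.6 FPKM in mzKO late 2-cell embryos and 0.971, 0.531 and 0.348 FPKM in wild type. Urah at the 4-cell time had 16.6, 6.63 and 12.04 FPKM in mzKO embryos and 0, 1.51 and 0 FPKM in wild type. Replicate 1 was the high mzKO library of Urah at both times. Bex2, of the brain-expressed X-linked family, had 19.8, 20.9 and 38.9 FPKM in mzKO late 2-cell embryos and 1.74, 0.214 and 3.605 FPKM in wild type. Bex2 at the 4-cell time had 24.6, 0.9696 and 1.87 FPKM in mzKO embryos and 0.218, 1.56 and 0 FPKM in wild type, and replicate 2 of the mzKO embryos lay within the wild-type range. That was the 1 overlap among the 20 comparisons of a gene at a time. Cd24a and Bex2 have close relatives in the mouse genome, and how the authors' counting shared reads between copies is not given in the sources used here, so their levels are uncertain.

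Because each gene was chosen for these values, their counts carry no evidence: 10 of 10 genes had every mzKO library above every wild-type library at late 2-cell and 9 of 10 at the 4-cell time, beside 17.9% and 29% of all 13989 genes tested. Genes called up by the rule used throughout (limma, Benjamini-Hochberg adjusted p under 0.05 and a log2 fold change of at least 1) made up 4.74% and 14.2% of all genes at those times. The median log2 fold change of the 10 genes was 3.44 at late 2-cell and 4.17 at the 4-cell time, beside 0.01 and 0.16 over all genes. The smallest changes were those of Sva at late 2-cell (1.85) and Bex2 at the 4-cell time (1.85). By mean FPKM in mzKO late 2-cell embryos, Crabp2 (70.6) and Cd24a (58.9) came first and Dmkn (15.0), Mdk (14.7) and Vim (13.9) last. At the 4-cell time the order differed, with Sva (108) and Cd24a (70.2) first and Bex2 (9.15) and Vim (7.69) last. Neighbours in these orders differed by less than the larger of their SDs, except Bex2 and Dmkn at late 2-cell and Dmkn and S100a10 at the 4-cell time.

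**Figure D1:**
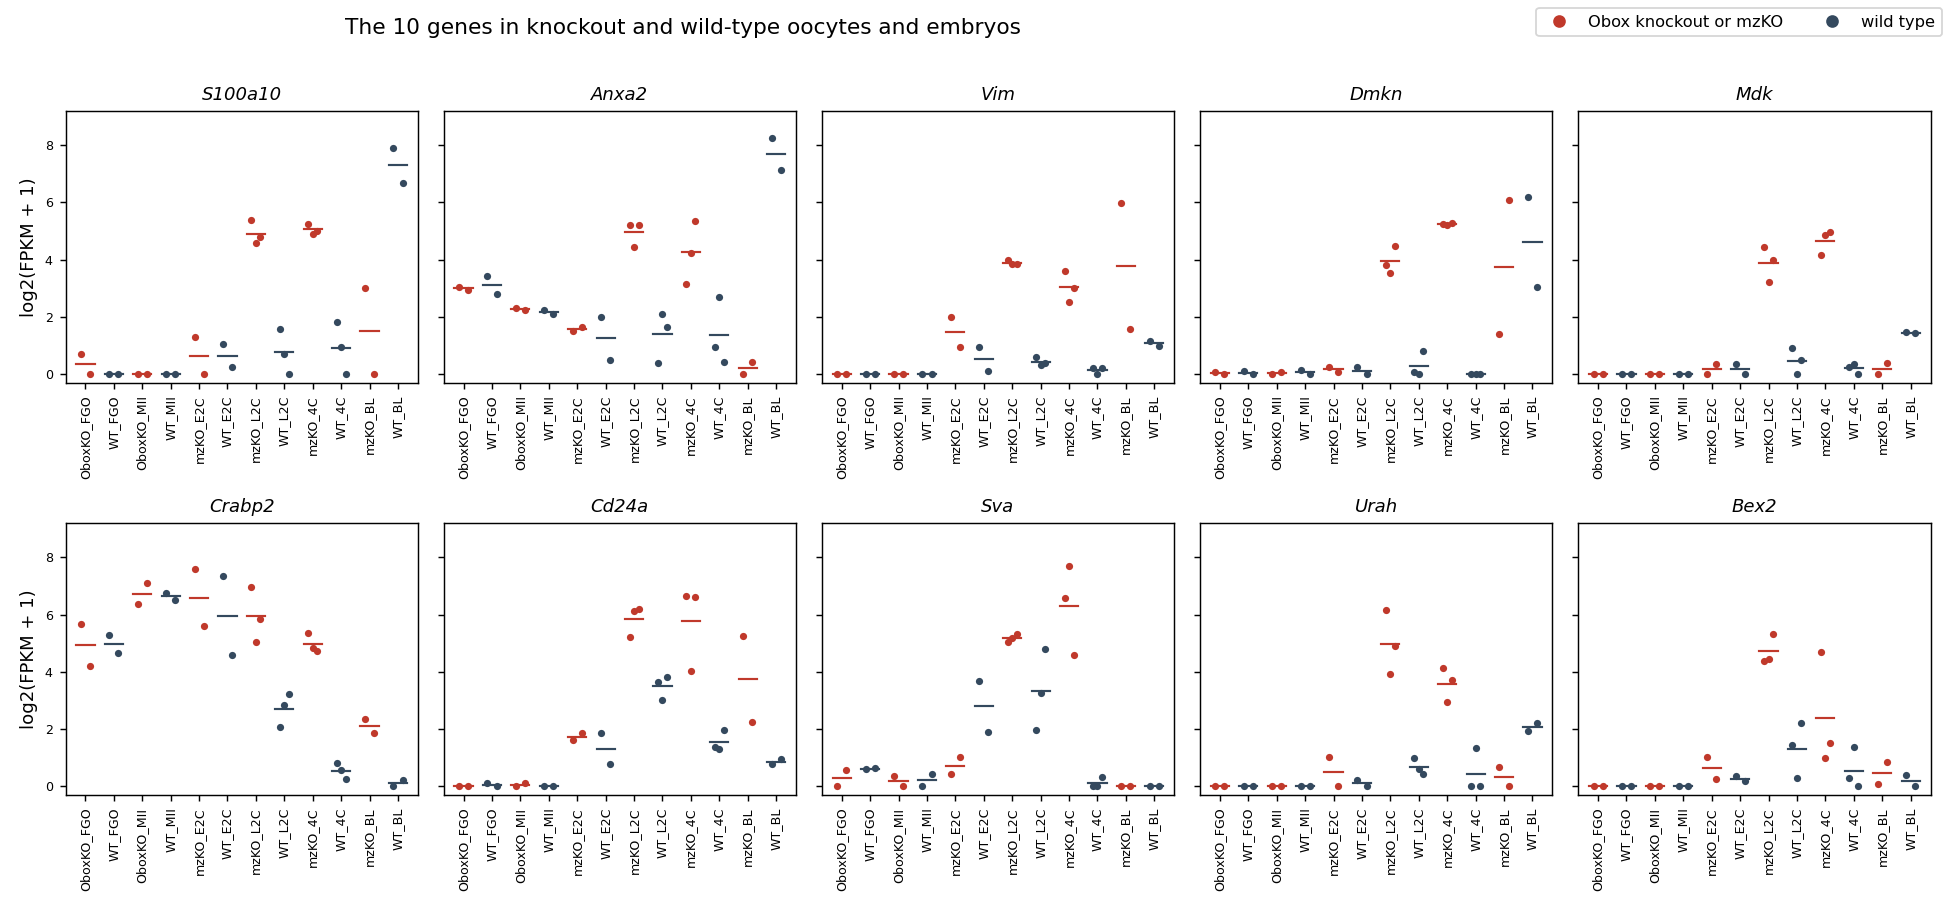
Level of each of the 10 genes as log2(FPKM + 1) on the vertical axis, with 1 point per library and a line at the group's mean of these log values, for Obox knockout or mzKO (red) and wild type (blue) oocytes and embryos in order of stage. At late 2-cell and the 4-cell time, which chose the genes, mzKO embryos lie above wild type, while S100a10 and Anxa2 reach their highest levels in wild-type blastocysts (WT_BL).

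Embryo libraries are mixtures, so a larger share of cells of a type and more RNA per cell cannot be told apart in them. Marker lists of cells that could cling to an embryo were summed beside the 10 genes. The 20 cumulus and granulosa genes summed to 5.75 to 14.3 FPKM in mzKO late 2-cell embryos and 13.7 to 20.7 FPKM in wild type. The 18 fibroblast genes summed to 5.34 to 8.64 FPKM in mzKO late 2-cell embryos and 5.53 to 11.7 FPKM in wild type, with Col1a2 at 0 in every library of both groups. At the 4-cell time the fibroblast sum was 9.96 to 15.7 FPKM in mzKO embryos and 3.45 to 9.87 FPKM in wild type. The 14 blood and immune genes moved with the 10 genes, at 74.4 to 177 FPKM in mzKO late 2-cell embryos and 21.98 to 64.4 FPKM in wild type, with the globin gene Hba-a1 at 34.9 to 86.8 FPKM in mzKO and 9.41 to 28.0 FPKM in wild type, while Hbb-b1 and Cd3e were listed at 0. At the 4-cell time the blood sum was 20.9 to 260.2 FPKM in mzKO embryos and 5.76 to 15.9 FPKM in wild type, with Hba-a1 at 7.23 to 168 FPKM in mzKO and 1.49 to 5.88 FPKM in wild type. Of the 10 oviduct genes the sum was 45.7 to 73.2 FPKM in mzKO late 2-cell embryos and 53.5 to 93.1 FPKM in wild type, and of the 11 sperm genes 4.94 to 9.27 FPKM and, in wild type, 16.6 to 43.8 FPKM. The oviduct sum at the 4-cell time was 69.7 to 127 FPKM in mzKO embryos and 51.8 to 52.9 FPKM in wild type.

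The 18 trophectoderm genes, markers of the outer layer of the blastocyst, also moved with the 10 genes. Their sum was 177 to 199 FPKM in mzKO late 2-cell embryos, against 50.4 to 63.8 FPKM in wild type, while Cdx2, the defining factor of that layer, was at 0.26 FPKM at most. Their sum at the 4-cell time was 96.3 to 225 FPKM in mzKO embryos and 46.4 to 93.3 FPKM in wild type, with Krt18 at 4.02 to 29.98 FPKM in mzKO and 0.416 to 0.685 FPKM in wild type. The 18 genes of the 2-cell embryo summed to 535 to 912 FPKM in mzKO late 2-cell embryos and 218 to 406 FPKM in wild type, and the 13 oocyte genes to 922 to 1717 FPKM in mzKO and 648 to 1169 FPKM in wild type. The 16 pluripotency genes ran the other way, with 205 to 239 FPKM in mzKO late 2-cell embryos and 788 to 896 FPKM in wild type, and the 14 primitive endoderm genes gave 13.8 to 23.8 FPKM in mzKO and 24.2 to 35.2 FPKM in wild type. The part of these lists in the levels of the 10 genes was not tested.

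Relatives and partners of the 10 genes were read from lists of pathways and families. The counts of each list stand beside 4.74% of all genes called up and 10.7% called down at late 2-cell, and 14.2% called up and 10.4% called down at the 4-cell time. Among the other annexin and S100 genes, calcium-binding proteins of membranes and the cytoskeleton, 5 rose and none fell of 15 tested in mzKO late 2-cell embryos (4.74% and 10.7% of all genes), with a median log2 fold change of 0.66 beside 0.01 for all genes. S100a11 averaged 19.6 ± 6.92 FPKM in mzKO and 1.68 ± 1.09 FPKM in wild type (SD, n = 3 each; log2 fold change 2.96 ± 0.52 SE, limma adjusted p = 0.000185). S100a13, S100a6 and S100a1 rose as well, by 2.96, 2.64 and 2.03 on the log2 scale. At the 4-cell time 5 rose and 2 fell of the same 15, beside 14.2% and 10.4% of all genes. Anxa5, which binds phosphatidylserine, rose by 2.52 (adjusted p = 0.00466, limma), and Anxa4 fell by 1.198 (adjusted p = 0.0319, limma).

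Of the other intermediate filament genes, 2 of 12 rose at late 2-cell and 7 of 12 at the 4-cell time, beside 4.74% and 14.2% of all genes, and none fell at either. Krt8 and Krt18 encode the partner keratins of simple epithelia and are also on the trophectoderm list. Krt18 averaged 6.09 ± 2.98 FPKM in mzKO late 2-cell embryos and 0.0980 ± 0.114 FPKM in wild type (SD, n = 3 each), a log2 fold change of 2.60 ± 0.47 (SE; limma adjusted p = 0.000286). Krt8 changed by 1.38 (limma adjusted p = 0.00789). The further calls named at the 4-cell time were the neuronal filament genes Prph (2.44), Nefh (1.66) and Ina (1.60), beside Krt18 (2.73).

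Midkine acts through syndecans and LRP receptors. Of the 9 other genes of that pathway 1 rose at late 2-cell, the syndecan gene Sdc4 (1.53, limma adjusted p = 0.00427), and 4 rose at the 4-cell time, with none falling at either, beside 4.74% and 14.2% of all genes called up. Sdc1 averaged 22.4 ± 9.59 FPKM in mzKO embryos and 3.41 ± 1.43 FPKM in wild type at the 4-cell time (SD, n = 3 each; limma adjusted p = 0.0241), and Sdc4, Lrp1 and Nrp1 rose by 1.70, 1.39 and 1.22 on the log2 scale.

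Of the 15 other genes of the retinoic acid pathway 2 rose and 1 fell at late 2-cell, beside 4.74% and 10.7% of all genes. Crabp1, the other cellular retinoic acid-binding protein, rose to 19.5 ± 12.4 FPKM in mzKO embryos, against 2.55 ± 1.65 FPKM in wild type (SD, n = 3 each; limma adjusted p = 0.00475). Aldh1a2, which makes retinoic acid, rose by 1.29, and the receptor gene Rarg fell to 5.10 ± 3.45 FPKM in mzKO embryos, against 12.4 ± 2.12 FPKM in wild type (SD, n = 3 each; limma adjusted p = 0.0361). At the 4-cell time 3 rose and 1 fell, near the shares of all genes called up (14.2%) and down (10.4%), with Crabp1 at 3.49, the lipid carrier gene Fabp5 at 1.82 and the nuclear receptor gene Ppard at 1.45.

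The smaller lists gave counts of 0 to 2 genes each way, beside the same shares of all genes. Of 6 other Bex and Tceal genes 2 rose at late 2-cell, Bex4 (2.17) and Tceal8 (2.08), and Bex6 fell to 6.19 ± 5.32 FPKM in mzKO embryos, against 71.7 ± 18.8 FPKM in wild type (SD, n = 3 each; limma adjusted p = 0.0127). At the 4-cell time 1 of the 6 rose and 1 fell. Of 10 purine catabolism genes beside Urah none passed the test at late 2-cell, and at the 4-cell time Gda and Ada rose, by 1.86 and 1.82, and Allc, whose enzyme acts downstream of urate, fell by 1.21, counts near the shares of all genes (14.2% up and 10.4% down). Of 5 epidermal genes tested beside Dmkn, Cdsn fell by 1.16 at late 2-cell, and Krtdap (1.68) and Tgm1 (1.42) rose at the 4-cell time. The 1 prolactin-induced secretory gene tested beside Sva passed at neither time.

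Before the late 2-cell stage none of the 10 genes passed the limma test between Obox knockout and wild type. In full-grown oocytes and in MII oocytes 0 of 10 passed, and 0 of 10 had an unadjusted p under 0.05, beside 0.0715% and 0.0572% of all genes called either way. In early 2-cell embryos 0 of 10 passed and 1, Sva, had an unadjusted p under 0.05, beside 0.4% of all genes called. Sva had 0.344 and 1.02 FPKM in mzKO early 2-cell embryos and 11.9 and 2.71 FPKM in wild type, a log2 fold change of -2.07 ± 0.73 (SE, n = 2 each; limma adjusted p = 0.894), which points opposite to its late 2-cell change. Crabp2 had 191 and 47.6 FPKM in mzKO early 2-cell embryos and 163 and 22.9 FPKM in wild type, so the libraries of a group were further apart than the groups. With 2 libraries a group the intervals were wide, for example -0.55 to 2.45 on the log2 scale for Vim (3.03 and 0.919 FPKM in mzKO and 0.931 and 0.0697 FPKM in wild type).

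Wild-type libraries show where each gene is normally high. Crabp2 RNA was stored in the egg, with 108 and 90.8 FPKM in MII oocytes and 38.4 and 24.04 FPKM in full-grown oocytes, and OboxKO oocytes held 81.4 and 136 FPKM at MII. Between MII and full-grown wild-type oocytes 0 of 10 genes passed and 1, Crabp2, had an unadjusted p under 0.05, beside 25.1% of all genes called either way, and its change was 1.67 ± 0.75 (SE, n = 2 each; limma adjusted p = 0.1). Anxa2 had 3.72 and 3.31 FPKM in MII and 9.82 and 5.95 FPKM in full-grown wild-type oocytes, and the other 8 genes stayed under 1 FPKM in both. Between wild-type early 2-cell embryos and MII oocytes Sva alone passed, with 11.9 and 2.71 FPKM in early 2-cell embryos and 0 and 0.338 FPKM in MII oocytes (2.58 ± 0.73 SE, limma adjusted p = 0.0115), beside 2.09% of all genes called up. Without replicate 1 of the MII oocytes or of the early 2-cell embryos that call was lost (adjusted p = 0.0868 and 0.133).

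Wild-type blastocysts differed from wild-type early 2-cell embryos in 7 of the 10 genes, 5 up and 2 down, beside 25.6% and 15% of all genes called up and down. S100a10 had 237 and 102 FPKM in blastocysts and 1.06 and 0.182 FPKM in early 2-cell embryos (6.65 ± 0.70 SE, limma adjusted p = 1.35e-08). Anxa2 had 307 and 139 FPKM in blastocysts and 2.99 and 0.412 FPKM in early 2-cell embryos (6.45 ± 0.70 SE, limma adjusted p = 2.08e-08). Both genes of the complex thus stood higher in the blastocyst than any other of the 10. Dmkn was higher too, at 72.5 and 7.32 FPKM in blastocysts (log2 fold change 4.50), with its libraries far apart. Urah (1.95) and Mdk (1.28) also passed but at low levels, 3.18 and 1.73 FPKM on average in the blastocysts of this table. Neither call held when libraries were scaled to equal sums without Rn45s or by median ratios. Crabp2 fell by 5.85 and Sva fell by 2.79 on the log2 scale, to means of 0.0845 and 0 FPKM in blastocysts.

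Set beside this course, the 10 genes fall into kinds. For S100a10, Anxa2 and Dmkn the mzKO late 2-cell means were 17.7%, 13.9% and 37.5% of the wild-type blastocyst means, and at the 4-cell time 19.2%, 9.89% and 92.4%. Crabp2 in mzKO late 2-cell embryos, at 70.6 FPKM, lay below its wild-type MII mean of 99.2 FPKM. The other 6 genes, Vim, Mdk, Cd24a, Sva, Urah and Bex2, had higher means in mzKO embryos at late 2-cell or the 4-cell time than in any wild-type stage of the first table. Their highest wild-type means there were 1.10 FPKM for Vim, 1.73 for Mdk and 3.18 for Urah, in blastocysts, and 10.6 for Cd24a, 12.7 for Sva and 1.85 for Bex2, in late 2-cell embryos. Single wild-type blastocyst libraries of other tables had more Mdk and Urah. The H2O library had 12.6 FPKM of Mdk and 12.4 of Urah, and the mKO control had 4.38 and 6.14 FPKM. The mzKO mean of Urah at the 4-cell time, 11.7 FPKM, lay below that of the H2O library. All 10 genes averaged at least 5 FPKM in mzKO embryos at both times, against 3 of 10 in wild-type late 2-cell embryos, 0 of 10 at the 4-cell time and 3 of 10 in wild-type blastocysts of the first table. The levels at late 2-cell and the 4-cell time chose the genes, so these counts describe the choice and carry no evidence.

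At the blastocyst time mzKO embryos were arrested and the pattern split. Of the 10 genes 3 passed as higher and 4 as lower than in wild-type blastocysts, beside 2.97% and 43.6% of all genes called up and down. Anxa2 had 0 and 0.353 FPKM in arrested mzKO embryos and 307 and 139 FPKM in blastocysts (-7.48 ± 0.70 SE, limma adjusted p = 1.17e-09), and S100a10 had 7.14 and 0 FPKM and, in blastocysts, 237 and 102 FPKM (-5.78 ± 0.70 SE, adjusted p = 1.02e-07). Cd24a had 36.9 and 3.696 FPKM in arrested embryos and 0.706 and 0.929 FPKM in blastocysts (2.88 ± 0.73 SE, limma adjusted p = 0.00156). Vim had 62.7 and 1.99 FPKM in arrested embryos and 1.22 and 0.994 FPKM in blastocysts (2.71 ± 0.73 SE, limma adjusted p = 0.00293). Fitted with only the groups compared, Vim did not pass (2.71 ± 1.40 SE, limma adjusted p = 0.124). The higher library of Cd24a and of Vim was replicate 1, the one with Obox3 RNA. Without it 3 genes passed, S100a10, Anxa2 and Urah, all lower, and the changes of Vim and Cd24a were 0.51 and 1.37 on the log2 scale (limma adjusted p = 0.460 and 0.148).

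Markers of other cells and stages moved with these calls. The 18 trophectoderm genes summed to 53.1 and 15.99 FPKM in arrested mzKO embryos and 5403 and 3190.4 FPKM in wild-type blastocysts, with Krt8 at 0 and 0.669 FPKM in arrested embryos and 1640.4 and 1013 FPKM in blastocysts, and they were low where S100a10 and Anxa2 were low. The fibroblast genes summed to 40.9 and 1.91 FPKM in arrested embryos and 31.1 and 22.4 FPKM in blastocysts. Of them Col1a1, a collagen gene, had 31.7 and 1.46 FPKM in arrested embryos and 0.041 and 0 FPKM in blastocysts, while Col1a2 and Dcn were at 0 in all 4 libraries. The blood genes summed to 34.7 and 6.904 FPKM in arrested embryos and 3.92 and 3.33 FPKM in blastocysts, and the oocyte genes to 346 and 50.4 FPKM in arrested embryos and 1.74 and 0.707 FPKM in blastocysts. The fibroblast, blood and oocyte sums were each highest in arrested replicate 1, the library with high Vim and Cd24a. The oviduct genes summed to 22.4 and 8.90 FPKM in arrested embryos and 620 and 183 FPKM in blastocysts. Their marker Ovgp1 ran against that sum, at 3.98 and 3.74 FPKM in arrested embryos and 0 and 0.0791 FPKM in blastocysts. The part of these markers in the calls was not tested.

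The remaining calls at that time were small. Crabp2 passed as higher (2.00, limma adjusted p = 0.028), with 4.13 and 2.64 FPKM in arrested embryos, and the call was lost with no filter (adjusted p = 0.0546) and without wild-type replicate 1 (0.130), wild-type replicate 2 (0.0675) or mzKO replicate 1 (0.130). Urah (-1.72) and Mdk (-1.26) passed as lower. The arrested libraries hold few genes and much Rn45s, and the median of all genes was -0.95 there. Scaled to equal sums without Rn45s, Mdk stood at 0.36 and by median ratios at 0.10, so its direction is not fixed, and Urah no longer passed. Dmkn had 1.66 and 67.3 FPKM in arrested embryos and 72.5 and 7.32 FPKM in blastocysts and did not pass. Other settings called Dmkn both ways, as higher with equal sums (3.06, limma adjusted p = 0.0409) and as lower without replicate 2 of the arrested embryos (-3.22, adjusted p = 0.000451) or of the blastocysts (-2.45, adjusted p = 0.0328). Sva was listed at 0 in both groups.

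Added Obox in mzKO embryos gave 1 library each, so there is no replicate check and no p-value. At collection Obox1, Obox3, Obox4, Obox5 and Obox7 were at 0.0871 FPKM or less in these 3 libraries, so the RNA that was added is not seen in them. With Obox1, Obox5 and Obox7 together, embryos labelled blastocysts had 239 FPKM of S100a10, 290.5 of Anxa2 and 22.7 of Dmkn. With Obox3, also labelled blastocysts, they had 101 FPKM of S100a10, 154 of Anxa2 and 5.47 of Dmkn. None of the 10 genes was 4-fold above or below the mean of wild-type blastocysts in either library, as means of log2(FPKM + 1), beside 0.105% up and 0.168% down and 0.0537% up and 0.311% down of all genes. Against the mean of the arrested mzKO embryos, 4 of 10 were past 4-fold up with Obox1, Obox5 and Obox7 (48.4% of all genes) and 3 past 4-fold down (1.82%), and with Obox3 2 were up (38.8%) and 3 down (2.37%). These counts rest on arrested replicate 1, the library with Obox3 RNA. Against arrested replicate 2 alone, a setting added after seeing the data, 3 were up (57.1% of all genes) and 0 down (1.19%) with Obox1, Obox5 and Obox7, and 3 were up (47.9%) and 1 down (1.4%), Dmkn, with Obox3. With Obox4, in embryos labelled arrested at the 2-cell stage, S100a10 had 10.9 FPKM, Anxa2 10.2, Cd24a 4.45, Bex2 3.55 and Sva 2.14 FPKM. In that library 4 of 10 were past 4-fold below wild-type blastocysts, beside 35.9% of all genes.

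**Figure D2:**
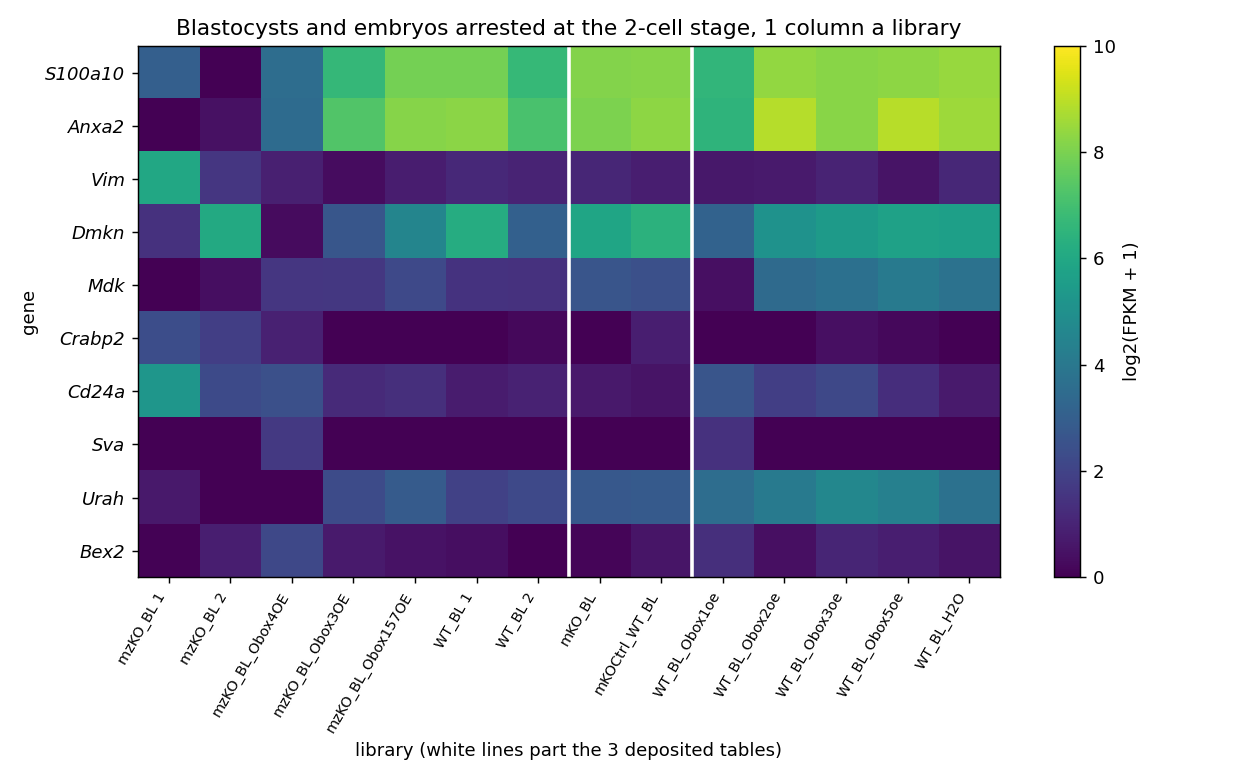
Colour gives log2(FPKM + 1) of each of the 10 genes (rows) in each library (columns) of blastocysts and of embryos arrested at the 2-cell stage, with white lines between the 3 tables. S100a10 and Anxa2 are low in the arrested mzKO libraries and in the one with added Obox4 and high in every blastocyst library, and Vim and Cd24a are high in arrested replicate 1.

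The mKO embryos, which lack the maternal product, were measured with their own controls in a table that the choice of genes did not use. All 10 genes were tested there, and 6 passed as higher in mKO late 2-cell embryos, beside 1.44% of 10341 genes called up and 11.4% called down. In 9 of 10 both mKO libraries lay above both control libraries, beside 12.2% of all genes. The median log2 fold change of the 10 genes was 2.62, beside -0.48 for all genes. S100a10, Vim, Mdk and Urah were under 1 FPKM in both control libraries. They passed the filter on low values (1 FPKM in at least 2 libraries) only through the mKO libraries. Their upward direction was thus fixed by the filter, and the counts and the median here include them.

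S100a10 had the largest change, with 20.2 and 41.9 FPKM in mKO embryos and 0.639 and 0 FPKM in controls, a log2 fold change of 4.56 ± 0.48 (SE, n = 2 each; limma adjusted p = 0.0173). Cd24a had 33.02 and 29.4 FPKM in mKO embryos and 3.18 and 0.904 FPKM in controls (3.51 ± 0.45 SE, adjusted p = 0.0194, limma). Its mKO libraries were nearly equal. Sva had 69.5 and 34.6 FPKM in mKO embryos and 9.95 and 0.204 FPKM in controls (3.79 ± 0.94 SE, adjusted p = 0.0441, limma). Urah had 6.45 and 12.96 FPKM in mKO embryos and 0 and 0.992 FPKM in controls (2.85 ± 0.51 SE, adjusted p = 0.0246, limma). The controls of both genes included a library at or near 0. Vim had 4.31 and 13.3 FPKM in mKO embryos and 0.447 and 0.232 FPKM in controls (2.71 ± 0.53 SE, adjusted p = 0.0282, limma). Crabp2 had 21.8 and 73.8 FPKM in mKO embryos and 9.55 and 3.81 FPKM in controls (2.53 ± 0.63 SE, adjusted p = 0.0443, limma).

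The other 4 genes did not pass in mKO embryos. Anxa2 had 2.71 and 17.5 FPKM in mKO embryos and 1.82 and 0.626 FPKM in controls (adjusted p = 0.121, limma), and Mdk had 1.29 and 4.902 FPKM in mKO embryos and 0 and 0.0559 FPKM in controls (adjusted p = 0.055, limma). Dmkn, with 11.9 and 0.687 FPKM in mKO embryos and 0.1502 and 1.73 FPKM in controls, was the gene whose groups overlapped. Bex2 had 2.42 and 2.47 FPKM in mKO embryos and 1.91 and 1.92 FPKM in controls, with a log2 fold change of 0.24 (95% confidence interval -0.64 to 1.11, limma adjusted p = 0.694). The sums of the blood, cumulus and oviduct lists were not higher in mKO embryos. The blood list summed to 19.8 to 35.8 FPKM in mKO and 35.9 to 37.3 FPKM in controls. The cumulus list summed to 11.1 to 12.9 FPKM in mKO and 20.1 to 20.9 FPKM in controls. The oviduct list summed to 33.5 to 43.0 FPKM in mKO and 70.0 to 70.3 FPKM in controls. Its marker Ovgp1 ran the other way, at 5.51 to 8.08 FPKM in mKO and 0.560 to 0.883 FPKM in controls. Foxj1 was at 0 in mKO and at 0.0556 FPKM at most in controls. The trophectoderm list summed to 36.2 to 65.8 FPKM in mKO embryos and 37.2 to 52.4 FPKM in controls. Within it Krt18 was at 1.96 to 2.74 FPKM in mKO and 0.224 to 0.594 FPKM in controls. Krt8 was at 0.425 to 0.929 FPKM in mKO and 0 in controls, and Cdx2 was at 0 in both groups. The 2-cell list summed to 551 to 2007 FPKM in mKO and 207 to 395 FPKM in controls. The part of these markers in the mKO calls was not tested.

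The test in mKO embryos has 2 residual degrees of freedom and its calls are fragile. For S100a10, Vim and Urah the filter on low values had fixed the direction. No alternative reversed the direction of the 6 called genes, but the count of 6 became 0 with no filter on low values, with equal sums without Rn45s (adjusted p between 0.053 and 0.068) and with median ratio scaling, and 1 to 3 when a library was left out. At the blastocyst stage mKO embryos and their controls gave 1 library each. S100a10 had 281 FPKM in the mKO and 289.5 FPKM in the control library, Anxa2 had 262 FPKM in mKO and 313 FPKM in control, and Dmkn 57.1 FPKM in mKO and 83.8 FPKM in control. None of the 10 genes differed by 4-fold in FPKM + 1 there, beside 0.198% up and 0.208% down of all genes.

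Embryos labelled Obox--, in libraries headed single embryo, showed less. At late 2-cell 4 of the 10 genes passed the filter on low values (1 FPKM in at least 2 libraries) and 1 passed the test, Anxa2, beside 0.23% of 11718 genes called up. Anxa2 had 3.28, 3.82, 2.39 and 1.47 FPKM in Obox-- embryos and 0.5404, 0 and 0.659 FPKM in Obox+- embryos, so that the groups did not overlap (1.41 ± 0.29 SE, n = 4 and 3, limma adjusted p = 0.0304). Among the Obox-- and Obox+- embryos of both stages only the Obox-- late 2-cell libraries reached 1 FPKM of Anxa2. It thus passed the filter only through the group where it was high, at low values. The call was lost with a pseudocount of 0.1, with no filter, with a filter of 5 FPKM, and without any 1 of 5 of the 7 libraries. Cd24a had 15.1, 5.14, 2.98 and 5.68 FPKM in Obox-- and 1.78, 2.75 and 3.26 FPKM in Obox+- embryos (1.02 ± 0.39 SE, n = 4 and 3, limma adjusted p = 0.252). S100a10 was not tested and had 0.522, 0, 3.39 and 0.604 FPKM in Obox-- embryos, with all 3 Obox+- libraries at 0, and Dmkn and Bex2 were at 0 in all 7 libraries. Crabp2 (0.46) and Sva (0.11) did not pass, with adjusted p of 0.674 and 0.948 by limma.

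At early 2-cell 0 of 4 tested genes passed between Obox-- and Obox+- embryos, none at an unadjusted p under 0.05, beside 0.461% of all genes called either way. Crabp2 had 101, 23.6 and 33.4 FPKM in Obox-- and 51.7, 49.3 and 38.6 FPKM in Obox+- embryos. Sva had 53.2, 20.2 and 35.4 FPKM in Obox-- and 27.98, 78.3 and 35.03 FPKM in Obox+- embryos. Both groups overlapped for both genes.

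**Figure D3:**
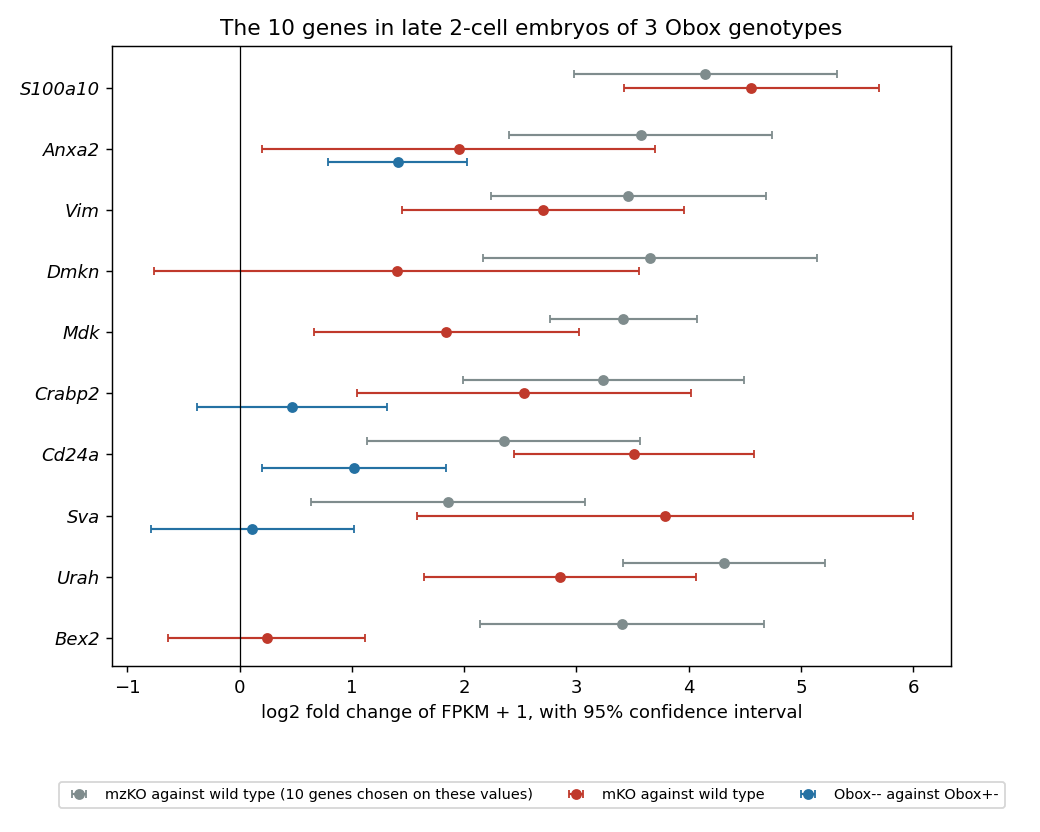
Log2 fold change of FPKM + 1 with its 95% confidence interval (horizontal axis) for each of the 10 genes in mzKO (grey), mKO (red) and Obox-- (blue) late 2-cell embryos against their own controls, from 3 separately normalised tables. The grey points chose the genes, 6 red points passed the test and 1 blue point, Anxa2, did, and 6 genes have no blue point because their values were too low to test. The red points of S100a10, Vim, Mdk and Urah passed the filter on low values only through mKO libraries, which fixed their direction. The blue point of Anxa2 passed it only through Obox-- libraries.

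Knockdown of single Obox genes or mixes moved none of the 10 genes past the threshold. In each of the 6 comparisons of siRNA with siCtrl 9 genes were tested (all but Dmkn) and 0 passed by limma. The shares of all genes called either way were 0.0233% with siObox12mix, 0.0233% with siObox5, 0.00776% with siObox7, 0.00776% with siObox4, 0.0699% with siObox6 and 0% with siObox8. In parthenotes 0 of 9 had an unadjusted p under 0.05 with siObox12mix, 1 (Vim) with siObox5 and 2 (Vim and Crabp2) with siObox7, and in embryos there were 3 (S100a10, Anxa2 and Urah) with siObox6 and 0 with siObox4 and with siObox8. Vim had 0.558 and 2.14 FPKM with siObox5, 1.04 and 1.26 FPKM with siObox7 and 0.0793, 0.2501 and 0 FPKM with siCtrl. Cd24a and Sva were high in the control parthenotes themselves, at 38.4, 17.1 and 43.01 FPKM and 4.63, 74.9 and 67.9 FPKM with siCtrl.

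The 4-cell embryos with siObox6 held the largest differences of the knockdowns. Obox6 was at 13.2 to 26.5 FPKM with siObox6 and 164 to 567 FPKM with siCtrl. Anxa2 had 133 and 6.78 FPKM with siObox6 and 5.72, 2.503 and 1.15 FPKM with siCtrl (3.12 ± 0.93 SE, limma adjusted p = 0.419). S100a10 had 157 and 9.39 FPKM with siObox6 and 10.6, 5.83 and 2.14 FPKM with siCtrl (2.69 ± 0.91 SE, limma adjusted p = 0.689). Urah had 10.7 and 4.88 FPKM with siObox6 and 3.74, 0.6804 and 0 FPKM with siCtrl (2.05 ± 0.48 SE, limma adjusted p = 0.154). Replicate 1 of siObox6 held the high values of Anxa2 and S100a10, and without replicate 2 their changes were 5.18 and 4.65 (adjusted p = 0.0119 and 0.0261, limma), while Urah passed without replicate 1 of siCtrl, at 2.68 (adjusted p = 0.0117, limma). With siObox8 replicate 1 was also the higher one, at 26.1 and 6.33 FPKM of S100a10 and 28.7 and 2.95 FPKM of Anxa2. Late 2-cell embryos with siObox3 gave 1 library beside 1 of siCtrl, and none of the 10 genes differed by 4-fold in FPKM + 1 (0.0824% up and 0.394% down of all genes).

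Added Obox in wild-type embryos gave 1 library per condition beside 1 of H2O, with no replicate check. In late 2-cell embryos the added gene was at 533 FPKM with Obox1, 50.8 with Obox2, 71.8 with Obox3 and 68.2 with Obox5, against 12.9, 15.5, 39.9 and 37.7 FPKM of those genes with H2O. Dmkn in late 2-cell embryos had 5.24 FPKM with Obox1, 0.207 with Obox2, 9.93 with Obox3 and 8.27 with Obox5, against 0.219 FPKM with H2O. As FPKM + 1, it was past 4-fold up with Obox1, Obox3 and Obox5. S100a10 was past it with Obox5, at 8.53 FPKM beside 1.203 FPKM with H2O. No other of the 10 was past 4-fold up on that scale at late 2-cell, beside 0.228% of all genes with Obox1, 0.0462% with Obox2, 0.258% with Obox3 and 0.211% with Obox5. The gap was wider in plain FPKM for low genes. With Obox3, Urah had 3.48, Vim 2.54 and S100a10 5.71 FPKM, against 0.293, 0.428 and 1.203 FPKM with H2O. Sva had 20.4 FPKM with Obox1 and 4.62 FPKM with H2O. Cd24a had 34.8 FPKM with Obox3 and 13.3 FPKM with H2O.

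At the blastocyst stage the RNA of the added gene was low, at 3.37 FPKM of Obox1, 0.211 of Obox2, 0.135 of Obox3 and 0 of Obox5 in the libraries labelled with them, and all 4 genes were at 0 with H2O. In the library labelled Obox1, 3 of the 10 genes were past 4-fold below H2O, beside 7.48% of all genes. Anxa2 had 90.8 FPKM with Obox1 and 367 FPKM with H2O, Dmkn 7.82 FPKM with Obox1 and 49.6 FPKM with H2O, and Mdk 0.322 FPKM with Obox1 and 12.6 FPKM with H2O. Markers of stage and cell type differed in that library too, with the trophectoderm list at 534 FPKM with Obox1 and 5072 FPKM with H2O and Cdx2 at 0.269 FPKM with Obox1 and 3.91 FPKM with H2O. The pluripotency list was at 2714 FPKM with Obox1 and 7699 FPKM with H2O, and the 2-cell list at 1509 FPKM with Obox1 and 125 FPKM with H2O. Their part in the differences was not tested. With Obox2, Obox3 or Obox5 none of the 10 passed 4-fold in FPKM + 1, beside 0.154% up and 0.113% down, 0.0727% up and 0.322% down, and 0.175% up and 0.134% down of all genes. The gap of Cd24a was wider in plain FPKM, with 2.61 FPKM with Obox2, 3.55 with Obox3 and 0.633 with H2O. S100a10 had 328, 301 and 312 FPKM with Obox2, Obox3 and Obox5, against 353 FPKM with H2O.

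Most of the 10 genes were on in embryonic stem cells without any added Obox. In the 5 GFP libraries Mdk had 25.04, 91.7, 104, 41.4 and 76.1 FPKM, S100a10 69.9, 209, 78.5, 38.4 and 39.4 FPKM and Vim 19.1, 40.02, 38.9, 69.8 and 21.6 FPKM. Bex2 had 32.6, 30.7, 33.6, 25.8 and 13.5 FPKM and Anxa2 ranged from 0.39 to 94.1 FPKM in those libraries, while Sva stayed under 1 FPKM. Added Obox3, at 760 to 2596 FPKM of Obox3 RNA against 0 to 37.2 FPKM with GFP, moved 0 of 9 tested genes past the threshold, with 1 at an unadjusted p under 0.05, beside 2.82% of 11186 genes called up and 0.197% called down. Vim had 6.25, 25.8, 21.5 and 11.6 FPKM with Obox3 (-1.19 ± 0.45 SE, n = 4 and 5, limma adjusted p = 0.22). With the replicate number as a block, which pairs these libraries, Vim passed as lower with Obox3 (-1.35 ± 0.26 SE, limma adjusted p = 0.00176). The pair of Obox3 replicate 4 is uncertain, so this call is too. Added Obox5 moved 0 of 9, none at an unadjusted p under 0.05, beside 2.18% of all genes called, and Vim had 11.5, 27.97, 20.8 and 24.7 FPKM.

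Nr5a2, a nuclear receptor that is active in early embryos, was removed in a further set of stem cells. With GFP, 3 of 9 tested genes passed as lower in Nr5a2 KO than in Nr5a2 wild-type cells, beside 1.22% of 11765 genes called down. Vim had 6.55 and 16.8 FPKM in Nr5a2 KO cells and 58.2 and 63.1 FPKM in wild-type cells (-2.41 ± 0.46 SE, n = 2 each, limma adjusted p = 0.00824). Mdk had 13.3 and 22.9 FPKM in KO cells and 69.1 and 73.2 FPKM in wild-type cells (-1.96 ± 0.48 SE, limma adjusted p = 0.0396). Crabp2 had 0.0512 and 0.709 FPKM in KO cells and 5.59 and 9.48 FPKM in wild-type cells (-2.63 ± 0.46 SE, limma adjusted p = 0.00393). These are 3 of the genes that were higher in mzKO embryos, and here they were lower without Nr5a2. S100a10, at 134 and 219.7 FPKM in KO and 69.1 and 90.2 FPKM in wild-type cells, did not pass (adjusted p = 0.239, limma) but did under both other scalings (1.39 and 1.48, adjusted p = 0.0399 and 0.0206). With no filter on low values none of the 3 calls held, and without replicate 1 of the KO cells none did.

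Adding Obox3 to Nr5a2 wild-type cells gave 1 call among 9 genes, Crabp2, which had 0.774 and 1.096 FPKM with Obox3 and 5.59 and 9.48 FPKM with GFP (-2.11 ± 0.46 SE, n = 2 each, limma adjusted p = 0.0317), beside 0.17% of all genes called down. That call was lost with another pseudocount, filter or scaling. In 7 of the 9 both Obox3 libraries lay below both GFP libraries, beside 46.3% of all genes. Dmkn stood on the other side, with 3.81 and 4.46 FPKM with Obox3 and 0.305 and 0.0498 FPKM with GFP, and did not pass (2.13 ± 0.62 SE, limma adjusted p = 0.142). Obox5 in wild-type cells and Obox3 or Obox5 in Nr5a2 KO cells moved 0 of 9 each (1, 4 and 3 at an unadjusted p under 0.05), beside 0.663%, 3.56% and 0.935% of all genes called either way. No difference of the effect of Obox3 or Obox5 between Nr5a2 KO and wild-type cells passed by the interaction term (0 of 9, with 1 at an unadjusted p under 0.05, for each, beside 0.102% and 0.0085% of all genes), and for Crabp2 the Obox3 interaction was 2.15 ± 0.65 (SE, limma adjusted p = 0.55).

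**Figure D4:**
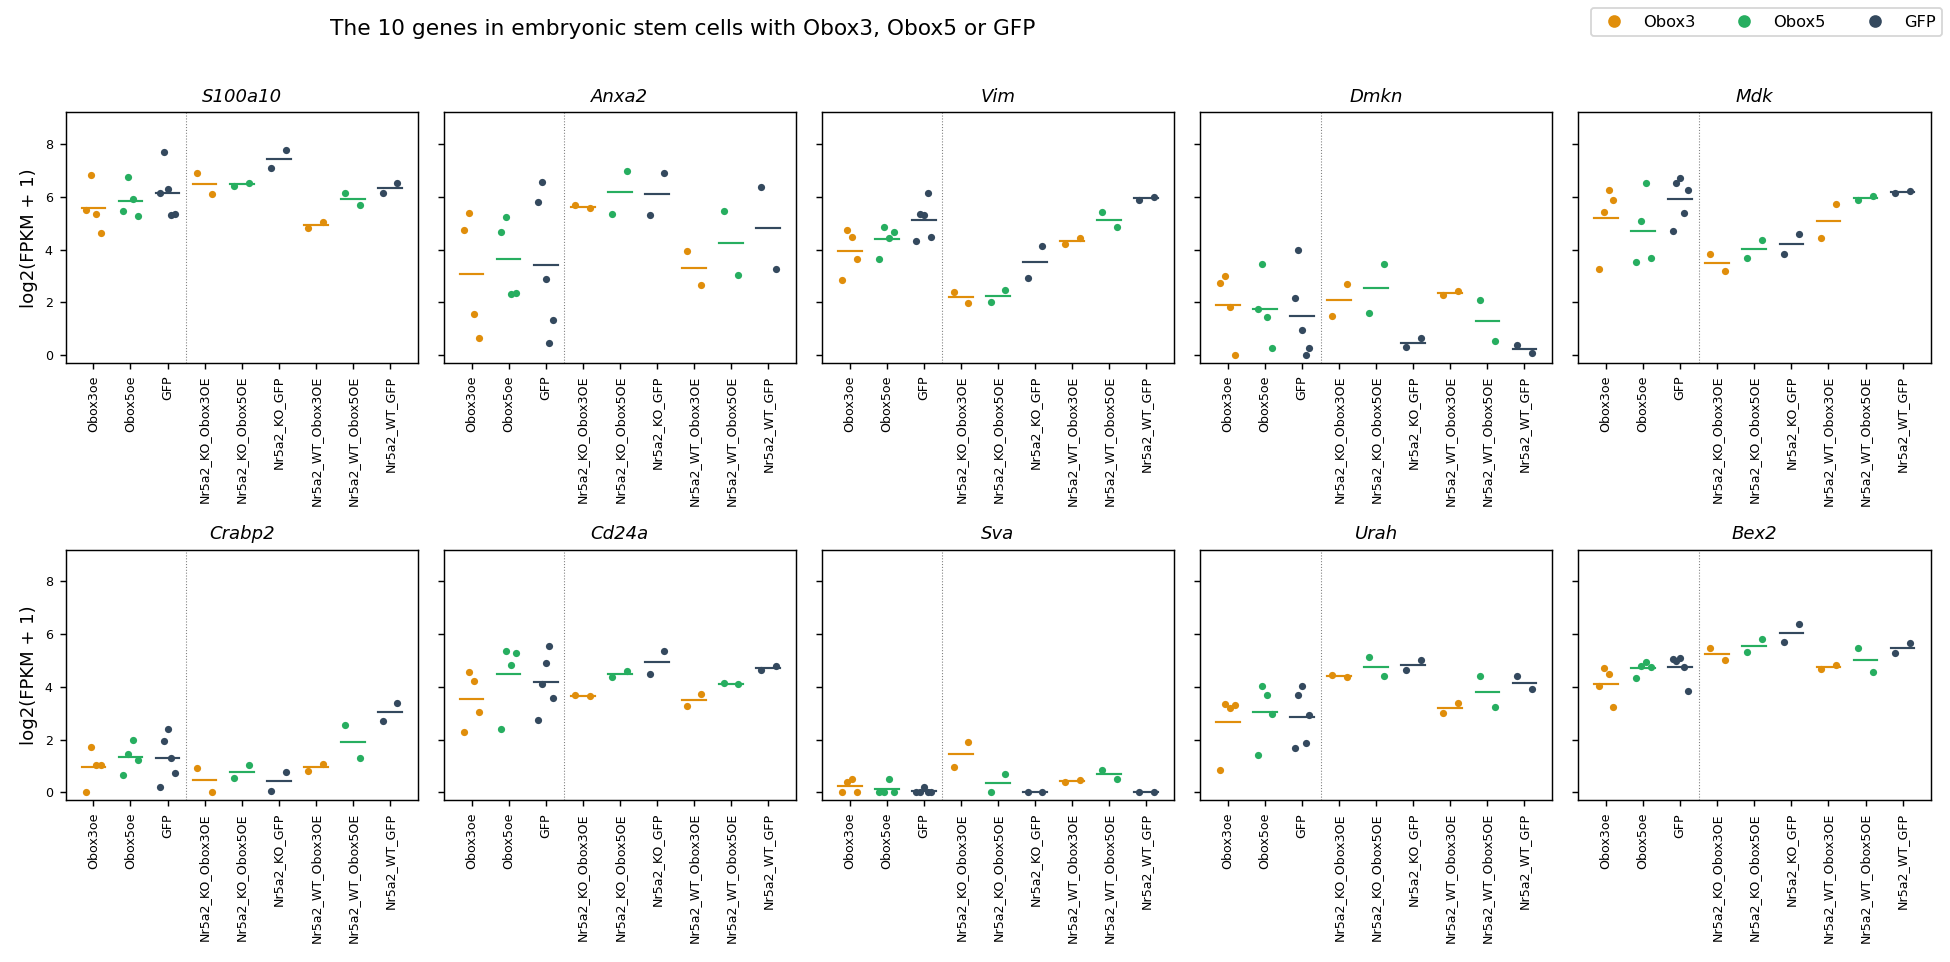
Level of each of the 10 genes as log2(FPKM + 1) in stem cells with Obox3 (orange), Obox5 (green) or GFP (blue), with 1 point per library and a line at the group's mean of these log values, and a dotted line between the 2 tables. Vim and Mdk lie lower in Nr5a2_KO_GFP than in Nr5a2_WT_GFP cells, and Sva is near 0 in all GFP libraries.

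Across the 31 libraries of the first table the 10 genes did not share 1 profile. The Pearson correlation with the mean of the 10 standardised profiles was highest for Mdk (0.95) and Urah (0.95) and lowest for Anxa2 (0.54) and Crabp2 (0.13). S100a10 and Anxa2 ran together (0.84), and so did Vim and Cd24a (0.84), while S100a10 and Crabp2 ran opposite (-0.38). Among 8910 other genes the profiles most like the mean were those of Popdc3 (0.91), Fxyd5 (0.91), Mapkapk2 (0.90), Sccpdh (0.88) and Gata2 (0.88), followed by H2-Bl, Tspan15, Jade3, Muc1 and Zfp36l2 (0.87 to 0.88). Muc1, a mucin of epithelia, averaged 6.75 FPKM in mzKO late 2-cell embryos and 0.377 FPKM in wild type, and 15.5 FPKM in mzKO embryos and 0.0313 FPKM in wild type at the 4-cell time. Gata2, a trophectoderm factor on the marker list above, averaged 14.1 FPKM in mzKO late 2-cell embryos and 2.03 FPKM in wild type. These libraries share groups and depth with the choice of genes, so the correlations only describe it.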

How the data were processed

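Expression was read from 7 tables of FPKM computed and deposited by the authors, with 107 libraries and 24116 genes used. Per the submitters' processing notes, the tools were StringTie 2.1.2, HISAT2 2.2.1, Trim Galore 0.6.6, Picard, deepTools 3.3.1 and Bowtie2 2.3.5 and the build was mm9, and no tool is tied to a file. Since FPKM are shares, a few abundant transcripts lower all others. Read counts were not used here, so the depth is unknown and no counting error is given. The other 28 samples (chromatin, polymerase, genome) were not analysed here.

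The 10 genes and all gene lists were chosen with earlier results of these data known. Groups came from the labels. Each table was fitted alone, with limma 3.58.1 (R 4.3.3) on log2(FPKM + 1), all replicated groups sharing the variance (trend and robust options), for genes with 1 FPKM in at least 2 libraries. A gene was called at a Benjamini-Hochberg adjusted p under 0.05 over all genes of the table and a log2 fold change of at least 1, and tests are two-sided. Fold changes on log2(FPKM + 1) understate those of low genes. Single libraries were described by a 4-fold difference in FPKM + 1 (genes at 1 FPKM or more in the pair). No 2 libraries of a table were identical. List genes named are up to 4 called each way per list with libraries of the 2 groups not overlapping, those of largest change. The likest genes are the 10 with the highest Pearson correlation among genes at 5 FPKM in 2 libraries. In the ESC table with 4 or 5 libraries a group, same-numbered Obox and GFP libraries deviated together in all 4 pairs (correlation 0.276 to 0.674 for Obox3 and 0.414 to 0.637 for Obox5), so the numbers were taken as pairs there. Obox3 replicate 4 correlated more with another GFP library (0.599) than with that of its own number (0.276), so its pair is uncertain. Alternatives were another pseudocount, other filters, 2 other scalings, other variance settings, blocks and libraries left out. The fits were tested on simulated data. Tables were handled with Python 3.11.15 and pandas 2.3.3.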

Additional observations from a re-analysis of the deposited data

Results flagged for a closer look

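In groups of 4 to 10 libraries, 40 group profiles of the 10 genes were examined for a library far from the rest of its group, and 6 had one, where chance gives about 1 in 20. In ESCs with GFP, replicate 2 was the highest library for S100a10, at 208.5 FPKM, and for Dmkn, at 14.7 FPKM, and replicate 3 was the highest for Sva, at 0.159 FPKM. In ESCs with Obox3, replicate 1 was the lowest for Urah, at 0.826 FPKM. In ESCs with Obox5, replicate 3 was the highest for Sva, at 0.406 FPKM. In Obox-- late 2-cell embryos, replicate 1 was the only library with Vim, at 0.185 FPKM. The 4 values of Sva, Vim and Urah lie under 1 FPKM.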

How the results depend on the processing

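The mzKO levels that chose the 10 genes kept their direction under each alternative run, with medians of 3.44 and 4.17 at late 2-cell and the 4-cell time, 4.66 and 5.55 with a pseudocount of 0.1, and 3.36 to 3.72 and 3.90 to 4.31 with a library left out. For mKO embryos the count of 6 called genes became 3 with a pseudocount of 0.1, 0 with no filter, 0 with equal sums without Rn45s and 0 with median ratio scaling, and 1 to 3 without a library (3 without control replicate 1, 1 without control replicate 2, 3 without mKO replicate 1, 2 without mKO replicate 2). For Obox-- at late 2-cell the 1 call became 0 with a pseudocount of 0.1, no filter, a filter of 5 FPKM and only the groups compared, and was 0 to 1 without a library. For MII against full-grown oocytes 0 became 1 with only the groups compared, and for early 2-cell against MII 1 became 2 with a pseudocount of 0.1 and 0 to 1 without a library. For arrested mzKO against wild-type blastocysts the count was 3 to 7 without a library, and Mdk reversed to 0.36 with equal sums and 0.10 with median ratios; for blastocyst against early 2-cell it was 6 to 7, and for siObox6 0 to 2. For Obox3 in ESCs 0 became 1 with median ratios and 1 with the replicate block. In Nr5a2 wild-type ESCs the 1 call with Obox3 became 0 with a pseudocount of 0.1, no filter, a filter of 5 FPKM, equal sums and median ratios, 2 with only the groups compared, 3 with the replicate block, and 0 to 1 without a library. In Nr5a2 KO ESCs 0 with Obox3 became 2 with equal sums, 2 with median ratios and 1 with only the groups compared, and 0 with Obox5 was 0 to 1 without a library (1 without Obox5 replicate 1). Nr5a2 KO against wild type, with 3 calls, gave 0 with no filter and 0 to 2 without a library (0 without KO replicate 1, 1 without wild-type replicate 1 or 2). Outside the ESC table with 4 or 5 libraries a group the numbers name libraries only; the replicate block gave 7 calls for mKO and changed no count not given here. Crossed numbers, tried after seeing the data, gave 0, 1 and 8 calls for OboxKO MII, early 2-cell against MII and mKO, beside 0, 1 and 6. Where the cause is not shown by fewer genes or samples, the cause was not tested.

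The 2 scalings shift the median of all genes by over 0.1 in several comparisons, most in arrested embryos (0.95 by both) and mKO (0.58 and 0.56). Groups of 2 libraries and an unknown depth limit what low values can show.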
